A study of Mus musculus with 8 samples.

Results

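The genes described here are 10 genes by which classical and patrolling monocytes of the mouse are recognised, Ly6c1, Ly6c2, Ccr2, Cx3cr1, Csf1r, Treml4, Ace, Plac8, F13a1 and Vcan. They were chosen by symbol and are 10 of the 51826 genes in the count table. All 10 passed the filter on low counts and are among the 16484 genes tested. Gene counts come from spleen cells, unsorted, of 8 Balb/c mice aged 3 months. From weaning on, 4 of them were dosed by mouth each day with tRA (all-trans retinoic acid, the active metabolite of vitamin A) at 1 mg/kg body weight, and the 4 control mice with its vehicle, canola oil. No mouse was injected with pristane. The treatment text of the sample labels gives tRA for all 8 mice, whereas the sample titles separate treated from control samples, and the grouping follows the titles. The counts on genes totaled from 30919272 to 37539631 per control mouse (median 33879268) and from 31810417 to 35165876 per tRA mouse (median 32899174.5).

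Classical monocytes carry much Ly6C and the chemokine receptor Ccr2, leave the bone marrow through Ccr2 and enter inflamed tissue. Patrolling monocytes carry little Ly6C and much Cx3cr1, crawl along the vessel wall and depend on the transcription factor Nr4a1 and on the growth factor receptor Csf1r. The spleen holds a reserve of monocytes in its red pulp, beside red pulp macrophages and dendritic cells that share some of these genes.

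None of the 10 genes passed the test between tRA and control. In the quasi-likelihood test of edgeR, adjusted over all genes by Benjamini-Hochberg, 0 of the 10 had an FDR under 0.1, as did 0% of all genes tested. The lowest FDR among the 10 was 0.757 and the highest 0.986. At an unadjusted p under 0.05 there were 0 of the 10 and 1070 of all genes tested, or 6.49%. Across the table DESeq2 called 44 genes and limma-voom 1 gene, and neither called any of the 10. DESeq2 gave Vcan no FDR, so it could not call that gene. Without tRA replicate 4 there were 657 of 16732 genes at an unadjusted p under 0.05, and 2105 of 16683 without tRA replicate 1. Of the 10 there were Ly6c2 and Plac8 without control replicate 1, beside 877 of all 16691 genes. Without control replicate 2 there were Ccr2 and F13a1, beside 1135 of all 16735 genes. There was also Vcan without tRA replicate 1 and Ace without tRA replicate 4, and none with any other mouse left out. With all 8 mice, Plac8 had an unadjusted p under 0.05 with DESeq2 (1154 of 16484 genes) and DESeq2 with no filter (1247 of 29817). So it had in edgeR with no filter (1592 of 29817) and with the replicate number as a block (1200 of 16484). Vcan was under 0.05 with limma-voom (1113 of 16484) and library size alone (1158 of 16484). Both were with at least 10 counts in every mouse (1025 of 14841) and protein-coding genes only (921 of 13146). RLE normalization gave none. The 10 log2 fold changes, tRA over control, ran from -0.26 to 0.67 with a median of -0.06, 5 positive and 5 negative, against a median of 0.00 over all genes tested. The groups did not overlap for 1 of the 10 genes, Vcan, against 3.54% of all genes tested. In RNA of whole spleen cells, a change in monocyte number, in RNA per monocyte or in other cells that make these genes cannot be told apart.

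**Figure D1:**
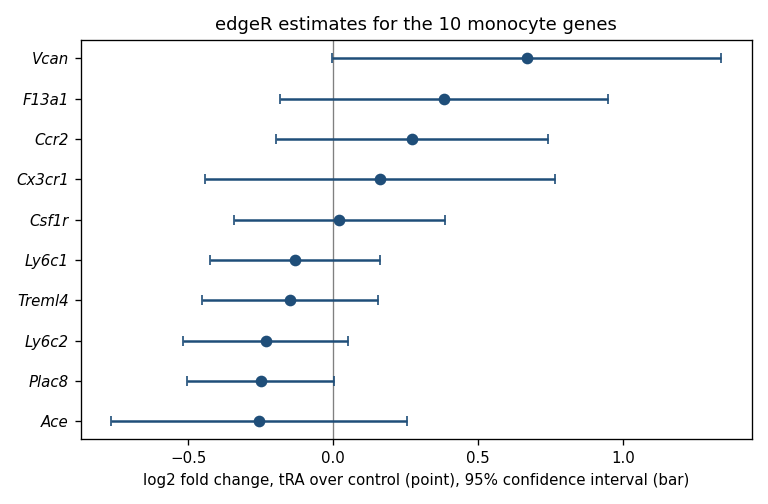
Log2 fold change of each of the 10 monocyte genes, tRA over control, with the 95% confidence interval from the edgeR fit (n = 4 mice per group). Each interval includes 0, and the estimates run from -0.26 for Ace to 0.67 for Vcan.

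Among the 10, the level per length of exon, in CPM per kb, was highest for Plac8 and lowest for Vcan. Plac8, a small cysteine-rich protein also made by other leukocytes, had 90.5 ± 16.6 CPM per kb in control mice (SD, n = 4) and 76.1 ± 2.37 with tRA (SD, n = 4). Csf1r followed with 30.7 ± 6.05 CPM per kb in control mice, and Treml4 with 23.4 ± 3.35. Ace at 14.2 ± 3.59 and Ly6c1 at 13.1 ± 2.13 CPM per kb lay within their spread of each other, as did Ly6c2 at 8.69 ± 1.41 and Ccr2 at 8.12 ± 2.86. Cx3cr1 had 4.18 ± 1.71 CPM per kb, F13a1 2.39 ± 0.978 and Vcan 0.0318 ± 0.00870 in control mice.

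Ly6c1 and Ly6c2 encode the closely related GPI-anchored surface proteins detected together as Ly6C. Ly6c1 measured 18.1, 22.7, 20.4 and 26.5 CPM in control replicates 1 to 4 and 18.6, 17.2, 20.7 and 23.6 CPM in tRA replicates 1 to 4. The groups overlapped, with the lowest value in tRA replicate 2 and the highest in control replicate 4. For Ly6c1 the log2 fold change was -0.13 (SE 0.133, 95% confidence interval -0.43 to 0.16, edgeR FDR 0.859). With 1 mouse left out it ran from -0.22 (without tRA replicate 4) to -0.029 (without control replicate 4). Ly6c2 measured 18.4, 24.6, 24.8 and 27.5 CPM in the control mice and 21.5, 17.3, 19.8 and 22.5 CPM in the tRA mice. Control replicates 2, 3 and 4 lay above all 4 tRA mice, and control replicate 1 lay below 3 of them. The log2 fold change of Ly6c2 was -0.23 (SE 0.129, 95% confidence interval -0.52 to 0.05, edgeR FDR 0.782). Both genes lie on the minus strand in GRCm38, Ly6c1 at chr15:75044018-75048830 and Ly6c2 at chr15:75108158-75111970.

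These paralogs share part of their sequence, so the split of counts between them is uncertain. The coding sequences of the reference transcripts are 396 bases long each and differ at 9 bases, an identity of 97.7%, with a longest identical run of 188 bases. Of all distinct stretches of 100 bases in the transcripts, 10.1% of those of Ly6c1 and 5.81% of those of Ly6c2 also stand in a transcript of another gene. For stretches of 50 bases the shares were 32.8% and 14.5%, and the length of the reads is not given in the sources used here. The ratio of Ly6c2 to Ly6c1 counts was 1.01, 1.09, 1.21 and 1.04 in the control mice and 1.16, 1.00, 0.958 and 0.952 in the tRA mice. These ratios overlapped between groups, and the difference in mean log2 ratio, tRA minus control, was -0.10 (two-sided exact permutation test, p = 0.314, where the smallest p the design allows is 0.0286). The first 120 coding bases are shown because they hold 6 of the 9 differences, in capitals, by which a read can be assigned. They come from GENCODE M21 for GRCm38, minus strand, and span an intron, at chr15:75047420-75048511 for Ly6c1 and chr15:75110578-75111667 for Ly6c2.
Ly6c1: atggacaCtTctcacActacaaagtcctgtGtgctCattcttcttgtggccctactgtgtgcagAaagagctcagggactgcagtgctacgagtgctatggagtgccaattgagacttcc
Ly6c2: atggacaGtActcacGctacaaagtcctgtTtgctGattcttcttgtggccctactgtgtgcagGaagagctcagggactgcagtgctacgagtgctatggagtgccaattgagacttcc

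Ccr2, the receptor by which classical monocytes leave the bone marrow, measured 34.8, 75.5, 66.8 and 42.6 CPM in the control mice and 55.9, 64.1, 73.3 and 71.8 CPM in the tRA mice. The control mice fell on both sides of the tRA mice, replicates 1 and 4 below all of them and replicate 2 above. The SD was 19.4 CPM around a mean of 54.9 in control mice and 8.00 CPM around 66.3 with tRA (n = 4 each). The log2 fold change of Ccr2 was 0.27 (SE 0.213, 95% confidence interval -0.20 to 0.74, edgeR FDR 0.821). F13a1, the A subunit of coagulation factor XIII, made by classical monocytes and some macrophages, measured 8.69, 24.7, 15.8 and 15.3 CPM in the control mice and 16.8, 18.8, 22.8 and 25.6 CPM in the tRA mice. Control replicates 1, 3 and 4 lay below every tRA mouse, and control replicate 2 above 3 of the 4. For F13a1 the log2 fold change was 0.38 (SE 0.257, edgeR FDR 0.796). With 1 mouse left out, F13a1 ran from 0.18 without control replicate 1 to 0.67 without control replicate 2. Ccr2 ran from 0.11 to 0.46 without the same mice, and neither gene had an FDR under 0.1 in any of these fits.

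Vcan, the matrix proteoglycan versican, had few counts, with 10, 17, 18 and 16 counts in the control mice and 19, 26, 33 and 20 counts in the tRA mice. All 4 tRA mice lay above all 4 control mice. In CPM the means were 0.459 ± 0.126 and 0.726 ± 0.154 (SD, n = 4 each). The log2 fold change of Vcan was 0.67 (SE 0.305, edgeR unadjusted p = 0.0514, FDR 0.757), which did not pass the test, and it ran from 0.48 without control replicate 1 to 0.76 without tRA replicate 1. Plac8 had the opposite direction, with 111, 142, 175 and 149 CPM in the control mice and 116, 125, 121 and 122 CPM in the tRA mice. Control replicates 2, 3 and 4 lay above all tRA mice and control replicate 1 below them. For Plac8 the log2 fold change was -0.25 (SE 0.115, edgeR unadjusted p = 0.0516, FDR 0.757). It ran from -0.36 without control replicate 1 to -0.15 without control replicate 3, and its lowest FDR under any alternative was 0.478.

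Cx3cr1, the fractalkine receptor, measured 9.09, 26.9, 22.7 and 16.7 CPM in the control mice and 15.8, 19.9, 23.5 and 25.0 CPM in the tRA mice. The tRA mice lay inside the range of the control mice. For Cx3cr1 the log2 fold change was 0.16 (SE 0.274, edgeR FDR 0.917), and it ran from -0.070 without control replicate 1 to 0.38 without control replicate 2. Ace, angiotensin-converting enzyme, a marker of patrolling monocytes, measured 46.6, 83.7, 85.5 and 84.2 CPM in the control mice and 48.8, 50.4, 58.8 and 93.1 CPM in the tRA mice. In each group 1 mouse stood apart, control replicate 1 low and tRA replicate 4 high. The log2 fold change of Ace was -0.26 (SE 0.231, edgeR FDR 0.848), and it ran from -0.51 without tRA replicate 4 to -0.15 without tRA replicate 1.

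Treml4, an immunoglobulin-type receptor of the Trem family on patrolling monocytes and splenic macrophages, measured 41.4, 55.9, 47.3 and 42.1 CPM in the control mice and 31.6, 43.1, 48.8 and 44.9 CPM in the tRA mice. Only tRA replicate 1 lay outside the range of the control mice. For Treml4 the log2 fold change was -0.15 (SE 0.137, edgeR FDR 0.849), and it ran from -0.23 without tRA replicate 3 to -0.034 without tRA replicate 1. Csf1r, the receptor for Csf1 and Il34 on monocytes and macrophages, measured 151, 228, 169 and 161 CPM in the control mice and 128, 185, 219 and 187 CPM in the tRA mice. Again tRA replicate 1 was lowest, and the other tRA mice lay inside the range of the control mice. The log2 fold change of Csf1r was 0.02 (SE 0.165, 95% confidence interval -0.34 to 0.39, edgeR FDR 0.986), and its sign changed with the mouse left out, from -0.088 without tRA replicate 3 to 0.17 without control replicate 2. Of its exon bases, 15.1% overlap exons of Hmgxb3 on the opposite strand; whether the counting used the strand is not given in the sources used here, so reads from that stretch cannot be told apart. Hmgxb3 had 14531 counts in all 8 mice together, from 1557 to 2182 per mouse, against 48018 for Csf1r. Exons of Ace overlap the antisense gene Gm11651 over 5.58% of their length, and Gm11651 had 6 counts in all 8 mice together.

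**Figure D2:**
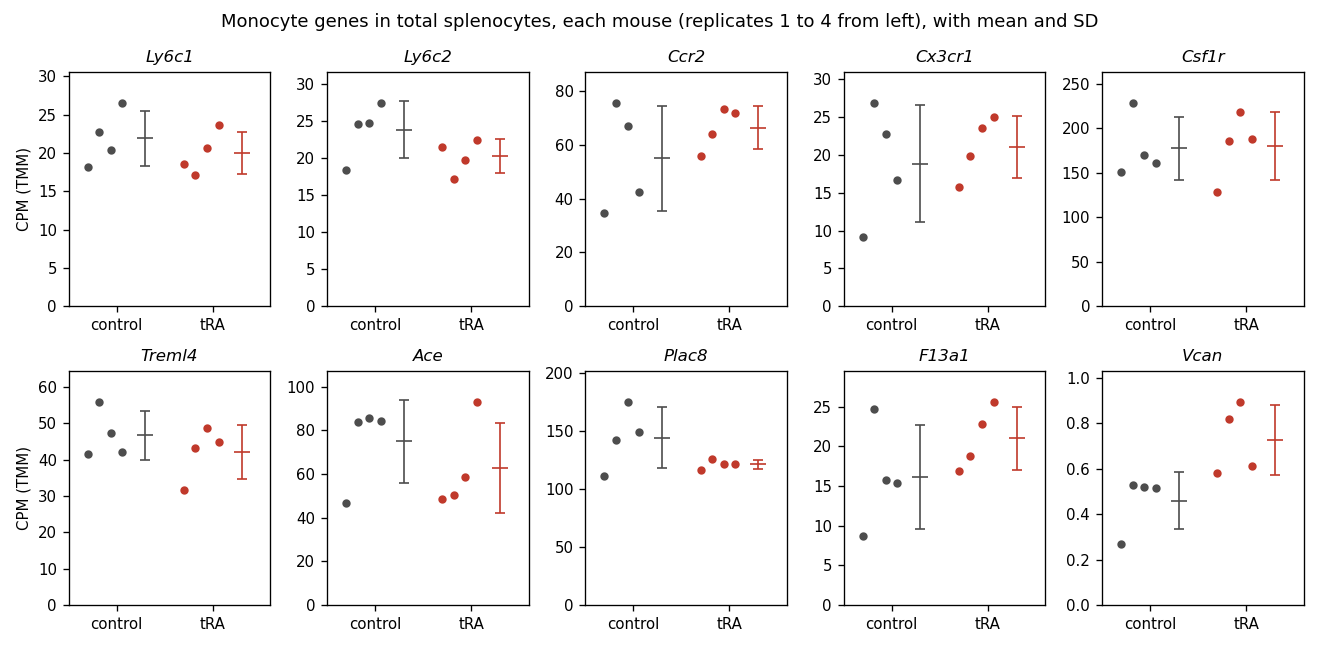
CPM (vertical axis) of each monocyte gene in the 4 control and 4 tRA mice, 1 point per mouse with replicates 1 to 4 from left to right, and the mean with SD beside the points. The groups overlap for every gene but Vcan.

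Control replicate 1 was the lowest of the 8 mice for 6 of the 10 genes, Ccr2, Cx3cr1, Ace, Plac8, F13a1 and Vcan. For Csf1r and Treml4 the lowest was tRA replicate 1, and tRA replicate 2 was lowest for Ly6c1 and Ly6c2. Over the 8 mice, log2 CPM of Ccr2 went with that of Cx3cr1 (Pearson's r 0.94, n = 8) and F13a1 (r 0.91, n = 8), and Cx3cr1 with F13a1 (r 0.93, n = 8). Csf1r went with Treml4 (r 0.91, n = 8), and Ly6c1 with Ly6c2 (r 0.84, n = 8) and Ace (r 0.84, n = 8). Between Ccr2 and Ly6c1 r was 0.088 and between Ccr2 and Ly6c2 0.086 (n = 8 each). These are descriptions over the same 8 libraries, with both groups together.

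**Figure D3:**
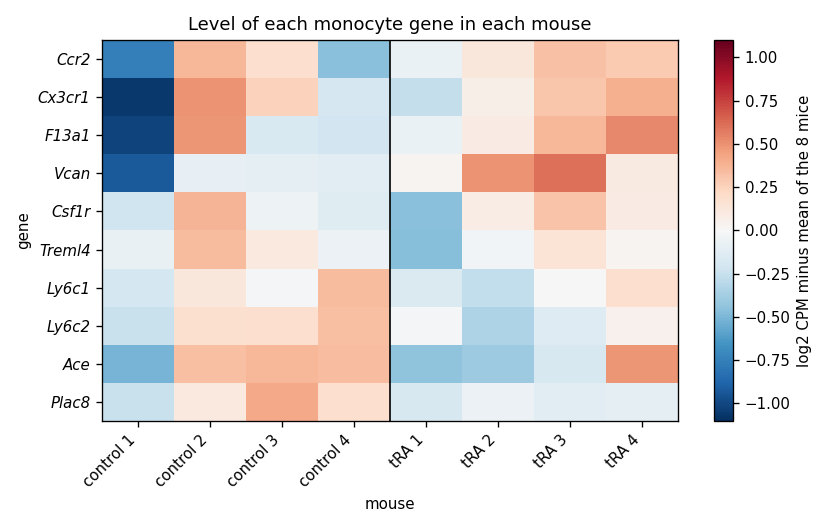
Log2 CPM of each gene (rows) in each mouse (columns) minus the gene's mean over the 8 mice, with the line between control and tRA mice. Control replicate 1 is lowest for 6 of the 10 genes.

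Of all genes tested, Ms4a8a (r 0.98, n = 8), Klhdc2 (r 0.97, n = 8) and the NK cell receptor gene Ncr1 (r 0.97, n = 8) had log2 CPM most like that of Ccr2. For Treml4 they were Cfap61 (r 0.97, n = 8), Troap (r 0.96, n = 8) and Ptgs1 (r 0.96, n = 8). These r are the highest picked from all genes tested, and whether they exceed chance was not tested. Cfap61 ran only from 0.122 CPM (tRA replicate 1) to 0.871 CPM (control replicate 2), and Troap from 0.916 to 3.02 CPM in the same mice. Ms4a8a ran from 0.650 CPM (control replicate 1) to 2.21 CPM (control replicate 2). Klhdc2, Ncr1 and Ptgs1 were higher, with 8.55 CPM the lowest value, for Ptgs1 in tRA replicate 1.

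Ly6c1, Ly6c2 and Treml4 are shown by the bases from 250 to 101 before their transcription starts, as paralogs that vary together and as the genes with a match. RefSeq promoters (GRCm38.p6) were searched for 9 of the 10 genes, all but Csf1r. The letters AGGTCA, a half-site bound by retinoic acid receptors, were searched on both strands of the 250 bases before each start. Whether any receptor binds these letters here was not tested. The motif was chosen for the treatment after these promoters had been read. It stood in 2 of 9 monocyte genes, Ly6c1 and Treml4, and in 14.0% of all 32851 promoters of that length. The capitals mark it, and no match in the Ly6c2 stretch says only that these letters are not in this window. The stretches are chr15:75048938-75049087 on the minus strand for Ly6c1, chr15:75112072-75112221 on the minus strand for Ly6c2 and chr17:48264045-48264194 on the plus strand for Treml4, and they are reference sequence rather than that of Balb/c.
Ly6c1: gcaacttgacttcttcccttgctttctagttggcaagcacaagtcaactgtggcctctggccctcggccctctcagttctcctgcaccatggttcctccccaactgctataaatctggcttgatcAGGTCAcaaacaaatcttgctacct
Ly6c2: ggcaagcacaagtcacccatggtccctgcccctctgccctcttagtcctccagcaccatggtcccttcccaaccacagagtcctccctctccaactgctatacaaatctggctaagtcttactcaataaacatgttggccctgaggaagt
Treml4: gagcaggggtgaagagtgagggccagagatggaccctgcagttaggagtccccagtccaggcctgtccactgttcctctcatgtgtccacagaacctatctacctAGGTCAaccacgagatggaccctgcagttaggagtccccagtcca

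Other genes of the same cells and pathways likewise had 0 calls in edgeR with all 8 mice. Of 11 other classical monocyte genes, 6 had a positive and 5 a negative log2 fold change, and 1 was at an unadjusted p under 0.05, Ifitm6 at -0.37 (edgeR FDR 0.757). Their median of 0.04 did not keep its sign: it was -0.11 with limma-voom and ran from -0.15 without tRA replicate 1 to 0.13 without control replicate 2. Of 10 other patrolling monocyte genes, 9 had a negative log2 fold change (median -0.18), and 3 negative genes and 1 positive gene were at an unadjusted p under 0.05, where all genes tested had 6.49%. The median was -0.10 without control replicate 3, and 7 of the 10 were negative without tRA replicate 1. Cd300e, an activating receptor of patrolling monocytes, measured 9.58, 10.9, 9.88 and 9.99 CPM in the control mice and 5.47, 6.14, 7.70 and 8.71 CPM in the tRA mice. The groups did not overlap, and its log2 fold change was -0.52 (SE 0.149, edgeR FDR 0.757). Fabp4 was at -0.83, or -0.51 without control replicate 3, and Spn, which encodes CD43, at 0.28, both with an edgeR FDR of 0.757. Of 12 genes shared by monocytes and other phagocytes, 5 were positive and 7 negative (median -0.01). The split moved with single mice, to 1 positive and 11 negative without control replicate 1 (median -0.076) and 8 positive and 4 negative without control replicate 2 (median 0.059). With all mice 1 of the 12 was at an unadjusted p under 0.05, Ms4a6c at 0.27 (edgeR FDR 0.757) and Lyz2, the most abundant, at 0.13.

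Of 7 ligands of the member receptors, 4 were tested, 2 positive and 2 negative. Their median of -0.16 ran from -0.33 without control replicate 1 to 0.16 with at least 10 counts in each mouse, where 3 of the ligands were tested. Csf1 was at 0.28 (SE 0.140, edgeR FDR 0.778), or 0.16 without tRA replicate 1, and Cx3cl1, the ligand of Cx3cr1, at -0.47 (edgeR FDR 0.793), while Il34, Ccl8 and Ccl12 were below the filter. All 8 monocyte transcription factors had a negative log2 fold change with all mice (median -0.26), and 7 of the 8 without control replicate 2 (median -0.16). Among them Spi1, which encodes PU.1, was at -0.18 over all mice (edgeR FDR 0.757). Nr4a1, on which patrolling monocytes depend, was highest of the 8 mice in tRA replicate 1, and measured 946 CPM in tRA replicate 2 but 159 and 233 CPM in tRA replicates 3 and 4. Replicates 3 and 4 were also low for 8 immediate early genes, whose summed level was 15091, 14430, 13547 and 12147 CPM in the control mice and 13800, 11002, 5363 and 6773 CPM in the tRA mice. All 8 had a negative log2 fold change (median -0.52), Fosb was the most abundant in the control mice and Fos in the tRA mice, and the median ran from -0.87 without tRA replicate 1 to -0.30 without tRA replicate 3. With all mice, 3 of the 8 were at an unadjusted p under 0.05, where all genes tested had 6.49%. For 3 of the 8 the groups did not overlap, against 3.54% of all genes tested. With edgeR 0 of the 8 had an FDR under 0.1 and with DESeq2 2 had, among its 44 of 16484 genes, Jun (FDR 0.0903) and Egr1 (FDR 0.0856); their part in the values of Nr4a1, Klf4 and Cebpb was not tested.

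Of 11 further Ly6 family genes, 6 were tested and all 6 had a negative log2 fold change (median -0.35), 3 of them at an unadjusted p under 0.05, where all genes tested had 6.49%. With limma-voom, without control replicate 3 and without tRA replicate 2 the split was 1 positive and 5 negative, and the median ran from -0.49 to -0.23 with 1 mouse left out. With at least 10 counts in each mouse 4 of the genes were tested, all negative (median -0.55). Ly6a, which encodes Sca-1, measured 6.33, 4.89, 6.70 and 8.85 CPM in the control mice and 4.09, 2.83, 4.83 and 4.09 CPM in the tRA mice. The groups did not overlap, and its log2 fold change was -0.75 (SE 0.208, edgeR FDR 0.757). Ly6g, a neutrophil gene, was at -0.77 and Ly6d at -0.34, and Ly6e, the most abundant, at -0.14. Ly6f, Ly6h and Ly6l had 0 counts in all 8 mice, Ly6i was below the filter, and Ly6m had no match in the annotation. Of 5 further Trem family genes, 4 were tested, 1 positive and 3 negative (median -0.17, from -0.39 without tRA replicate 1 to 0.0070 without tRA replicate 3), and of 8 further chemokine receptor genes 4 were positive and 4 negative (median 0.00, from -0.045 to 0.076 over the alternatives).

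Genes of other cells in the spleen were measured beside the 10. All 9 neutrophil precursor markers had a negative log2 fold change (median -0.86), with Camp nearest to the threshold at an edgeR FDR of 0.135. Of the 9, DESeq2 called 4, where it called 44 of 16484 genes in all, and limma-voom called 1, its only call among 16484. With no filter on low counts edgeR called 3 of the 9 and 6 of 29817 genes in all, and without tRA replicate 4 it called 3 of the 9 and 3 of 16732. The DESeq2 FDR was 7.96e-10 for Camp, 0.00162 for Ngp and 0.0135 for Ltf. Their summed level was 577, 729, 761 and 653 CPM in the control mice and 268, 331, 360 and 528 CPM in the tRA mice, with Ngp the most abundant; their part in the values of genes shared with monocytes was not tested. The median log2 fold change was -0.27 over 6 mature neutrophil markers (-0.45 without tRA replicate 4 and -0.11 without tRA replicate 3), -0.04 over 9 red pulp macrophage markers, -0.07 over 7 cDC markers and -0.09 over 7 plasmacytoid dendritic cell markers. It was 0.10 over 6 endothelial markers, -0.10 over 5 platelet and megakaryocyte markers (-0.30 without tRA replicate 3 and -0.019 over the 2 with at least 10 counts in each mouse), -0.08 over 6 plasma cell markers (-0.18 without tRA replicate 1) and 0.11 over 7 CD8 T cell and NK cell markers. It was 0.43 over 5 erythroid markers (-0.16 without tRA replicate 3 and 0.85 without control replicate 3), -0.01 over 4 B cell markers (0.02 when scaled by library size alone) and 0.15 over 4 T cell markers. With 1 mouse left out, the median also changed sign for the red pulp macrophage, cDC, plasmacytoid dendritic cell, endothelial, CD8 T cell and NK cell and B cell markers, with ranges of -0.23 to 0.053, -0.16 to 0.023, -0.19 to 0.087, -0.061 to 0.27, -0.016 to 0.15 and -0.051 to 0.059. Of the 6 plasma cell markers, 3 were positive and 3 negative. At an unadjusted p under 0.05 were 2 of them, Jchain at -0.46 and Tnfrsf17 at -0.78 (edgeR FDR 0.757 each), where all genes tested had 6.49%. So were 2 mature neutrophil markers, both negative, 1 positive and 1 negative plasmacytoid dendritic cell marker, and 1 positive cDC marker. Of the 9 neutrophil precursor markers, 7 were at an unadjusted p under 0.05, all negative. For 5 of the 9 the groups did not overlap, against 3.54% of all genes tested.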

How the data were processed

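The authors deposited raw read counts per Ensembl gene for each mouse, and these were used as deposited. The methods of the study name ea-utils, Btrim, Bowtie2, Tophat2 and HTSeq, while the submitters' processing notes list STAR 2.5.2b, featureCounts 1.5.1, DESeq2 1.26.0 and GRCm38. A table of the authors' DESeq2 comparison, with fold changes and p-values, was not used. Symbols and positions came from GENCODE M21. In R 4.3.3, edgeR 4.0.16 was run with filterByExpr (minimum count 10), TMM and the quasi-likelihood test on tRA against control, with FDR over all genes tested. Alternatives used limma 3.58.1 and DESeq2 1.42.0, and Python 3.11.15 with matplotlib 3.10.9 drew the figures. Per list, the most abundant gene and up to 3 genes with the lowest p were named, as were genes without counts and, for Ccr2 and Treml4, the 3 genes most alike; Klf4, Il34, Ccl8 and Ccl12 were named after their values were seen. A further gene is not reported here. The members and lists were chosen with earlier results of these data known.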

Additional observations from a re-analysis of the deposited data

Results flagged for a closer look

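Ace in control replicate 1 measured 46.6 CPM, far below the other 3 control mice at 83.7 to 85.5 CPM. Vcan in control replicate 1 measured 0.271 CPM, below the other control mice at 0.517 to 0.529 CPM, on 10 counts. Both were singled out because 1 mouse lay far from the rest of its group; 22 groups of 4 mice were examined, in which chance gives about 1.1 such values.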

How the results depend on the processing

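None of the 10 genes had an FDR under 0.1 under any of the 17 alternatives, and 8 of the 10 kept their sign in all of them. The exceptions were Cx3cr1, from -0.070 to 0.38 with 1 mouse left out (negative without control replicate 1), and Csf1r, from -0.088 to 0.17 (negative without control replicate 1, 3 or 4 or tRA replicate 3). The number of genes called was 44 with DESeq2, 1 with limma-voom, 6 with no filter on low counts, and 0 to 3 with 1 mouse left out (3 without tRA replicate 4). DESeq2 with no filter, added after seeing the data and with an earlier count by that tool known, called 27. DESeq2 gave no FDR for 1 of the 10 genes. With 1 mouse left out, the median over the 10 genes ran from -0.14 to 0.06 and the log2 ratio of Ly6c2 to Ly6c1 from -0.16 to -0.04. Mice share only a replicate number (correlations 0.157, -0.0229, -0.0140 and 0.259), and the replicate block called 0 genes. Other genes also changed sign: the log2 fold change of Pax5 was 0.000419 by library size alone, and the log2 fold change of Pecam1 was -0.000539 with a minimum of 10 counts per mouse. With 1 mouse left out, log2 fold changes ran from -0.096 to 0.071 for Pax5, -0.012 to 0.011 for Pecam1, -0.040 to 0.26 for Lyz2, -0.15 to 0.072 for Spib, -0.75 to 0.091 for Tie1, -0.25 to 0.053 for Gzma, -0.16 to 0.068 for Itgax, -0.069 to 0.71 for Kdr, -0.022 to 0.35 for Stab2, -0.16 to 0.93 for Hbb-bs, -0.12 to 0.96 for Alas2 and -0.13 to 0.85 for Hba-a1; the cause was not tested. Of the 10 genes, depth limits Vcan most, at 10 to 33 counts per mouse.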
